A study of Homo sapiens with 10 samples.

Results

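The 6 mature miRNAs described here are both arms of miR-22, miR-132 and miR-212, which come from 3 stem-loops on the short arm of human chromosome 17. They are 6 of the 2576 mature miRNAs in the deposited table, 1196 of which were read at least once, and each of the 6 had reads. The members were chosen by name with earlier results of the same libraries known: the difference between IGF2BP1 knockdown and control siRNA, in which miR-22-3p and miR-132-3p had stood out, is treated as the measure they were chosen on. That difference is therefore given as a description, with no p-value for the members, and how many of them passed a threshold in it supports nothing.

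The libraries are small RNA sequencing of ES-2, an established cell line derived from a human ovarian cancer. Cells had received control siRNAs (siC, 2 libraries) or siRNAs against IGF2BP1 (siI1, 2 libraries), IGF2BP2 (siI2, 3 libraries) or IGF2BP3 (siI3, 3 libraries), the 3 paralogous IGF2 mRNA-binding proteins. All libraries therefore come from transfected cells of 1 line, and the labels give no untransfected sample, no time after transfection and no siRNA sequences. The study's title asks how IGF2BP1 affects the repression of oncogenic factors by miRNAs, and the comparison of each knockdown with siC gives the levels of the miRNAs themselves. The table's control columns match no single control sample by name and are called siC C2 and siC C3. The labels do not say whether replicate libraries stem from separate cultures. The p-values below therefore cover the spread of these libraries alone, which may be technical.

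A miRNA is cut from a hairpin precursor whose 5p and 3p arms can each be loaded into an Argonaute protein, and the loaded strand finds its target mRNAs mainly through its seed, bases 2 to 8. One arm usually accumulates and the other, the passenger, is mostly degraded. miR-22 is a broadly expressed miRNA transcribed within a noncoding host gene, and has been described both as a tumour suppressor and as an oncogenic miRNA. miR-132 and miR-212 are neighbours thought to be made from 1 primary transcript and are best known in neurons, where CREB induces them, and miR-132 is also known in activated endothelium.

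The mature sequences are shown because the seeds divide the 6 arms into groups, and because the likeness of the 3p arms of miR-132 and miR-212 bears on how their reads can be counted. They are printed 5′ to 3′ as RefSeq lists them on GRCh38.p14, with the seed in capitals, and all 6 members matched an entry.
hsa-miR-22-3p: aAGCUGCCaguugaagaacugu
hsa-miR-22-5p: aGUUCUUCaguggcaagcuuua
hsa-miR-132-3p: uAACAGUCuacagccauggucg
hsa-miR-212-3p: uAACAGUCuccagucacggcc
hsa-miR-132-5p: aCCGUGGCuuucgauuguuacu
hsa-miR-212-5p: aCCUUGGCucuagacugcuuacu

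The 3p arms of miR-132 and miR-212 share 1 seed, and no other mature miRNA of that reference table carries it. The other 4 seeds each belong to 1 mature miRNA in that table. Counting positions from 1 at the 5′ end of miR-132-3p, without gaps, 17 of 21 positions were identical in miR-212-3p, and the differences were A10C, C14U, U17C and U20C. The passenger arms differ inside the seed: counted in the same way from the 5′ end of miR-132-5p, 14 of 22 positions were identical in miR-212-5p, with G4U in the seed and U10C, C12A, U15C, U18C, A20U, C21A and U22C after it. How mismatched reads were placed is not given in the sources used here, so a small exchange of reads between the 3p arms of miR-132 and miR-212 cannot be judged from the table.

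On GRCh38.p14 all 3 stem-loops lie on the minus strand of chromosome 17. The mature arms of miR-22 lie at chr17:1713914-1713935 (3p) and chr17:1713952-1713973 (5p). In the GENCODE v29 annotation both arms fell within 1 exon of all 19 overlapping transcripts of the lincRNA gene MIR22HG. MIR132 spans chr17:2049908-2050008 and MIR212 spans chr17:2050271-2050380. In both, the stretch that holds the mature arms overlapped no other annotated gene, and the flanks of the stem-loops were not compared. Between the outer arms of MIR132 and MIR212 lie 303 bases, and between those of MIR22 and MIR132 lie 336 kb that hold 8 protein-coding genes, among them DPH1 and OVCA2, genes of a stretch long studied for its loss in ovarian tumours. The deposited values were made with hg19 and the table has no coordinates, so these positions describe the reference and not the authors' counting. The hairpins of the locus of miR-132 and miR-212 are printed to show where each mature arm (capitals) sits.
MIR132: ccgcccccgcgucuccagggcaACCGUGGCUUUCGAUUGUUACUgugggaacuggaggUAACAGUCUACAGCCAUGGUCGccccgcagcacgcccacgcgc
MIR212: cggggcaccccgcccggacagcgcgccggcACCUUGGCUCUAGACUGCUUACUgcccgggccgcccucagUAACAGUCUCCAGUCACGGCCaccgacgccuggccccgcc

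Recovered depth ranged from 462724 to 1269743 miRNA reads per library, and the siI1 libraries were the deepest, at 1269743 and 1096008 reads. The labels give siC and siI1 another source name than siI2 and siI3, and the first principal component of the 313 miRNAs with a mean normalised value of at least 10, with 77.1% of the variance, separated the libraries by that name. miR-126, the endothelial marker pair, made up 0.00803% to 0.0163% of reads in siC and siI1 libraries against 0.000491% to 0.00182% in siI2 and siI3. The smooth muscle and fibroblast markers miR-143-3p and miR-145-5p made up 0.0569% to 0.162% against 0.000368% to 0.00121%. A comparison of siI2 or siI3 with siC therefore crosses this boundary, and knockdown and source name cannot be told apart there. siI2 against siI3 stays within 1 source name. The sum of the blood markers did not split by source name, at 0.0439% to 0.118% in siC and siI1 against 0.0440% to 0.163%. Its members differed: miR-451a had means of 364 in siC, 110 in siI1, 0.636 in siI2 and 1.58 in siI3. For miR-142-5p they were 424, 397, 489 and 793. The neural markers made up 0.0730% to 0.121% against 0.0564% to 0.0680%. Among them miR-124-3p stood at 30.4 in siC, 32.7 in siI1 and 0 in siI2 and siI3. Among the other markers, the epithelial list (the miR-200 family, miR-141 and miR-205, 6 of 7 listed miRNAs being in the table) made up at most 0.00121% of reads. The skeletal muscle list made up at most 0.000273%, and the liver marker miR-122-5p had no read. Of the mesenchymal or line background list, 6 of 7 miRNAs together made up 22.8% to 25.2% of reads. miR-21-5p led them with a mean of 84178 over the 10 libraries, while miR-199a-5p had a mean of 427 and miR-214-3p stood at 0.

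miR-22-3p, the main arm of miR-22, was among the most abundant miRNAs of the cells. A value below is a normalised read count as the authors deposited it, in which 1 read was worth 0.803 to 2.0 depending on the library. miR-22-3p stood at 23936 and 27968 in siC C2 and C3, which is 2.62% and 2.86% of all reads. In siI1 it stood at 39064 and 33814, or 3.83% and 3.50% of reads. The siI1 libraries held the highest values of the 10 and did not overlap with siC. In siI2 the values were 28104, 28786 and 28525. In siI3 they were 28071, 31448 and 31773. Its rank among all miRNAs moved only between 8 and 12.

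The passenger arm miR-22-5p gave few reads. It stood at 11.5 and 10.6 in siC, from 7 and 8 reads, and at 24.1 and 14.1 in siI1, from 30 and 16 reads. In siI2 it stood at 12.7, 15.3 and 15.5, and in siI3 at 14.0, 17.7 and 9.51. Neighbouring groups in the order of means (siI1, siI2, siI3, siC) overlapped for this arm.

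miR-132-3p, the main arm of miR-132, was far less abundant. It stood at 29.7 and 47.9 in siC, from 18 and 36 reads, and at 102 and 111 in siI1, from 127 and 126 reads. The siI1 libraries lay well above the rest, and the other 3 groups overlapped. In siI2 the values were 43.9, 45.8 and 36.3. In siI3 they were 35.9, 53.2 and 33.3. The rank of miR-132-3p was 160 and 153 in siI1 and between 175 and 222 elsewhere.

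miR-132-5p, the passenger arm of miR-132, had its own pattern. It stood at 4.95 and 6.65 in siC (3 and 5 reads), and at 17.7 and 15 in siI1 (22 and 17 reads). In siI2 it stood at 1.41, 1.91 and 0, from 1, 1 and 0 reads. In siI3 it stood at 3.99, 4.73 and 7.14, from 2, 4 and 6 reads. The siI2 libraries were below all others, and siC and siI3 overlapped.

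Both arms of miR-212 were near the limit of this depth. miR-212-3p, which shares the seed of miR-132-3p, stood at 4.95 and 5.32 in siC (3 and 4 reads) and at 11.2 and 8.82 in siI1 (14 and 10 reads). It stood at 1.41, 3.82 and 1.73 in siI2 (1, 2 and 1 reads) and at 9.98, 7.10 and 2.38 in siI3 (5, 6 and 2 reads). The siI3 libraries spanned from within the siI2 values to within the siI1 values. miR-212-5p, the passenger, had 0 and 3 reads in siC, 4 and 6 in siI1, 2, 0 and 1 in siI2 and 0, 1 and 0 in siI3. For a library with 0 reads the limit that a count of 0 allows is 3 reads, so these zeros show no absence, and this limit and the intervals given for ratios and shares cover counting error only.

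**Figure D1:**
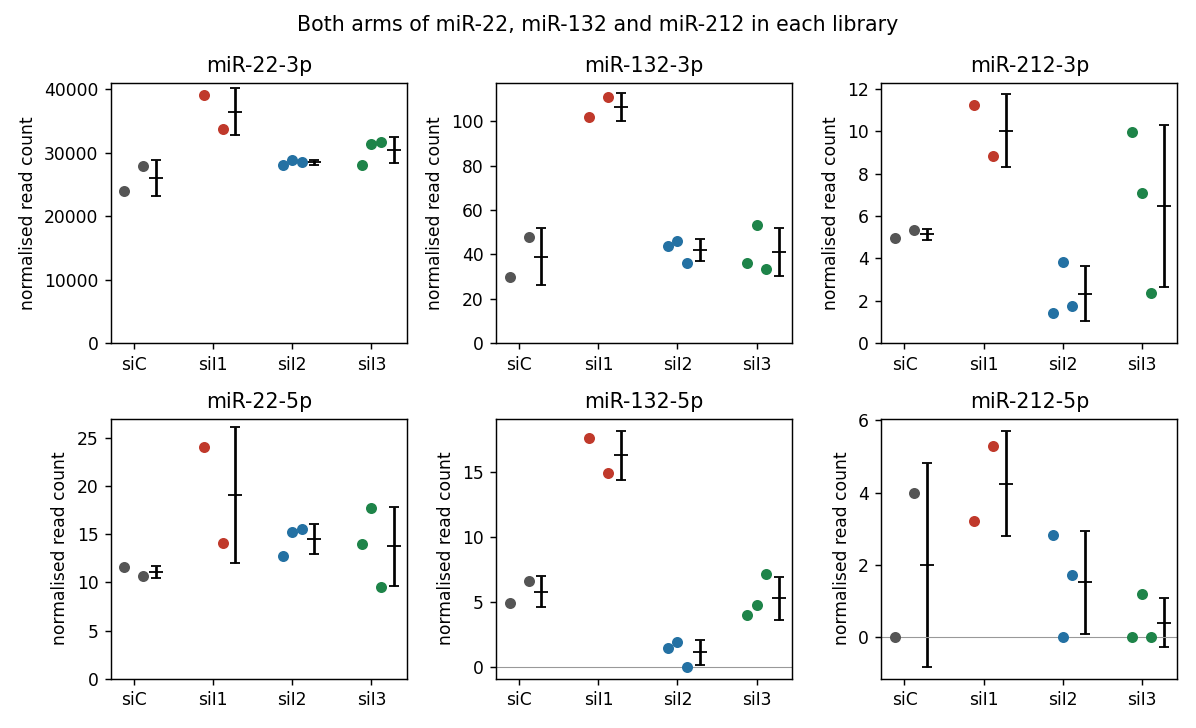
Normalised read count (vertical axis, linear, scale differing between panels) of each of the 6 arms in the libraries of each group, with the group mean and SD as the black bar beside the points. The siI1 libraries lie above all others for miR-22-3p, miR-132-3p and miR-132-5p, and the siI2 libraries lie lowest for miR-132-5p, at 0 to 1.91.

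The loci differed widely in amount. miR-22-3p alone gave 99.5% to 99.8% of the reads of the 6 arms in every library. There were 806 and 584 normalised reads of miR-22-3p for each of miR-132-3p in siC and 383 and 304 in siI1. The ratio ranged from 628 to 787 in siI2 and from 591 to 954 in siI3. The siI1 ratios were the lowest of the 10 libraries: both miRNAs stood highest in siI1, and miR-132-3p stood higher by the larger factor. All of these miRNAs have mature lengths of 21 to 23 bases and were counted from small RNA reads, so no length correction was made. Ligation and amplification can favour 1 small RNA over another, so that a ratio between miRNAs is a ratio of reads.

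IGF2BP1 knockdown against control is the difference the members were chosen on. Fold changes are differences of means of log2(value + 1), which understates the change of low miRNAs, and errors are standard errors from a limma fit to all 10 libraries. miR-132-3p was 38.8 ± 12.9 (SD, n = 2) in siC and 107 ± 6.40 (SD, n = 2) in siI1, a log2 difference of 1.47 ± 0.30 (SE). miR-22-3p was 25952 ± 2851 (SD, n = 2) in siC and 36439 ± 3713 (SD, n = 2) in siI1, a log2 difference of 0.49 ± 0.11 (SE). For miR-132-5p the log2 difference was 1.36 ± 0.62 (SE), close to that of its partner arm, and for miR-212-3p it was 0.84 ± 0.64 (SE). For miR-22-5p it was 0.69 ± 0.40 (SE), and 0.32 without siI1 replicate 1 or 1.05 without siI1 replicate 2. miR-212-5p had 10 reads in siI1 and 3 in siC, and its share of all reads was 1.81 times that in siC with an exact 95% counting interval from 0.467 to 10.3.

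A miRNA is called changed where its Benjamini-Hochberg adjusted p from limma, over the 889 miRNAs that reached a value of 1 in 2 or more libraries, is under 0.05. In siI1 against siC the choice of the members set their calls beforehand, and they are no test: 2 of the 6 arms, miR-22-3p and miR-132-3p, were past the threshold, where 2.47% of all tested miRNAs were. Each siI1 library lay above each siC library for 5 of the 6 arms, where this held for 23.1% of all tested miRNAs. Both siI1 libraries lay above the other 8 libraries for 3 of the 6 arms, where this held for 8.66%. Since the members were chosen on this contrast, nothing is read from these counts. The log2 difference of miR-22-3p was 0.29 with TMM, 0.36 with upper-quartile and 0.26 with median-of-ratios scaling. The median log2 difference of the 6 arms was 1.02, and that of all tested miRNAs was 0.10. The authors' deposited table gave a log2 fold change of 0.49 for miR-22-3p and of 1.44 for miR-132-3p.

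Markers of other cells stood beside these values as follows, and their part in the difference was not tested. The neural list (miR-124-3p, miR-9-5p and miR-128-3p), of interest because miR-132 is abundant in neurons, made up 0.0730% to 0.0894% of reads in siC and 0.0807% to 0.121% in siI1, with none of the 3 at 0 in either group. The endothelial pair made up 0.0101% to 0.0163% in siC and 0.00803% to 0.0156% in siI1. Blood markers, with miR-486-5p at 0, made up 0.0633% to 0.118% in siC and 0.0439% to 0.0659% in siI1. The siC and siI1 ranges of these sums overlapped. Within the neural list miR-9-5p stood at 135 ± 66.2 (SD, n = 2) in siC and 299 ± 121 (SD, n = 2) in siI1. Its siI1 libraries lay above its siC libraries, as did those of 23.1% of all tested miRNAs. miR-124-3p stood at 30.4 ± 17.3 (SD, n = 2) in siC and 32.7 ± 22.4 (SD, n = 2) in siI1. miR-128-3p stood at 605 ± 195 (SD, n = 2) in siC and 666 ± 102 (SD, n = 2) in siI1. Both of these miRNAs overlapped between the groups. In bulk RNA, fewer cells of a type and less RNA per cell cannot be told apart.

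IGF2BP2 knockdown against control gave no call for the 6 arms. miR-22-3p was 28472 ± 344 (SD, n = 3) in siI2, a log2 difference from siC of 0.14 ± 0.10 (SE) with a 95% interval from -0.08 to 0.35 and a limma adjusted p of 0.585. The difference was 0.026 without siC C2 and 0.25 without siC C3. miR-132-3p was 42.0 ± 5.05 (SD, n = 3), a difference of 0.14 ± 0.28 (SE) with an interval from -0.46 to 0.74 and a limma adjusted p of 0.857. The siI1 libraries of both miRNAs lay above the siI2 libraries, a difference that was not tested. For the passenger arm miR-132-5p, 2 reads in 3 siI2 libraries stood against 8 in 2 siC libraries, a share of all reads 0.185 times that in siC with an exact 95% counting interval from 0.0191 to 0.926. Its log2 difference was -1.82 ± 0.57 (SE), with an unadjusted limma p of 0.00729 and an adjusted p of 0.0675, and over the alternative settings the adjusted p ranged from 0.0531 to 0.411. That fitted difference rests on the constant added to low values and moved between -3.12 and -0.83 over settings. miR-212-3p differed by -0.95 ± 0.59 (SE) with a limma adjusted p of 0.450, and miR-22-5p by 0.36 ± 0.37 (SE) with 0.734.

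In siI2 against siC 0 of the 6 arms were called by limma, where 9.00% of all tested miRNAs were, and 1 arm, miR-132-5p, had an unadjusted p under 0.05. With edgeR and with DESeq2 on the recovered reads 0 of the arms they tested were called. Each siI2 library lay above each siC library for 2 arms (miR-22-3p and miR-22-5p), where 10.7% of tested miRNAs did, and below for 2 (miR-132-5p and miR-212-3p), where 16.1% did. The 5 arms with a fold change had a median of 0.14, against -0.03 over all tested miRNAs. miR-212-5p has no fold change in the comparisons of siI2 and siI3, as both groups compared held 3 reads or fewer. The authors' deposited table gave a false discovery rate of 1 for each of the 6 arms in this comparison and in siI3 against siC.

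IGF2BP3 knockdown against control also gave no call for the 6 arms. miR-22-3p was 30431 ± 2050 (SD, n = 3) in siI3, above siC in every library, with a log2 difference of 0.23 ± 0.10 (SE), a 95% interval from 0.02 to 0.45, an unadjusted limma p of 0.0372 and an adjusted p of 0.200. Without siC C2 the difference was 0.12, and without siC C3 it was 0.34. The adjusted p ranged from 0.0309 to 0.637 over the alternative settings, and with upper-quartile scaling, which raised the median of the 313 more abundant miRNAs from 0.08 to 0.26, the log2 difference was 0.42 and was called. miR-132-3p was 40.8 ± 10.8 (SD, n = 3), a difference of 0.08 ± 0.28 (SE) with an interval from -0.52 to 0.68 and a limma adjusted p of 0.901. Its direction flipped to -0.025 with median-of-ratios scaling, to -0.039 with edgeR and to -0.036 with DESeq2, so no direction is given for it. miR-132-5p differed by -0.13 ± 0.57 (SE) with a limma adjusted p of 0.922, and its direction flipped to 0.022 with upper-quartile scaling. miR-212-3p differed by 0.13 ± 0.59 (SE) with 0.926, and miR-22-5p by 0.25 ± 0.37 (SE) with 0.777. In siI3 against siC 0 of the 6 arms were called by limma, where 10.6% of all tested miRNAs were, and 1 arm, miR-22-3p, had an unadjusted p under 0.05. edgeR and DESeq2 called 0 of the arms they tested. Each siI3 library lay above each siC library for 1 arm, miR-22-3p, where 11.2% of tested miRNAs did, and below for 0 arms, where 18.1% did. The median of the 5 arms was 0.13, against 0 over all tested miRNAs. All 3 comparisons with siC share its 2 libraries.

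IGF2BP2 against IGF2BP3 knockdown shares no library with the contrast the members were chosen on. No difference of the main arms passed the test. miR-22-3p differed (siI2 minus siI3) by -0.09 ± 0.09 (SE) on the log2 scale, with a 95% interval from -0.29 to 0.10 and a limma adjusted p of 0.765. miR-132-3p differed by 0.06 ± 0.25 (SE), with an interval from -0.47 to 0.60 and a limma adjusted p of 1, and its direction flipped to -0.12 with upper-quartile scaling. The passenger arm miR-132-5p had 2 reads in the 3 siI2 libraries and 12 in the 3 siI3 libraries, and each siI2 library lay below each siI3 library. Its share of all reads in siI2 was 0.196 times that in siI3, with an exact 95% counting interval from 0.0213 to 0.880. The log2 difference was -1.68 ± 0.51 (SE), with an interval from -2.78 to -0.58, an unadjusted limma p of 0.00587 and an adjusted p of 0.117 that ranged from 0.0669 to 0.333 over settings. This difference thus failed the correction over all miRNAs. miR-212-3p differed by -1.08 ± 0.52 (SE) with a limma adjusted p of 0.380. miR-22-5p differed by 0.11 ± 0.33 (SE) with an adjusted p of 1, and by -0.065 with upper-quartile scaling. In this comparison 0 of the 6 arms were called by limma, where 3.15% of tested miRNAs were, and 1, miR-132-5p, had an unadjusted p under 0.05. edgeR and DESeq2 called 0 of the arms they tested. No arm lay above without overlap (0 of 6, where 7.31% of tested miRNAs did) and 1 lay below (where 7.99% did). The median of the 5 arms was -0.09, against 0 over all tested miRNAs.

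**Figure D2:**
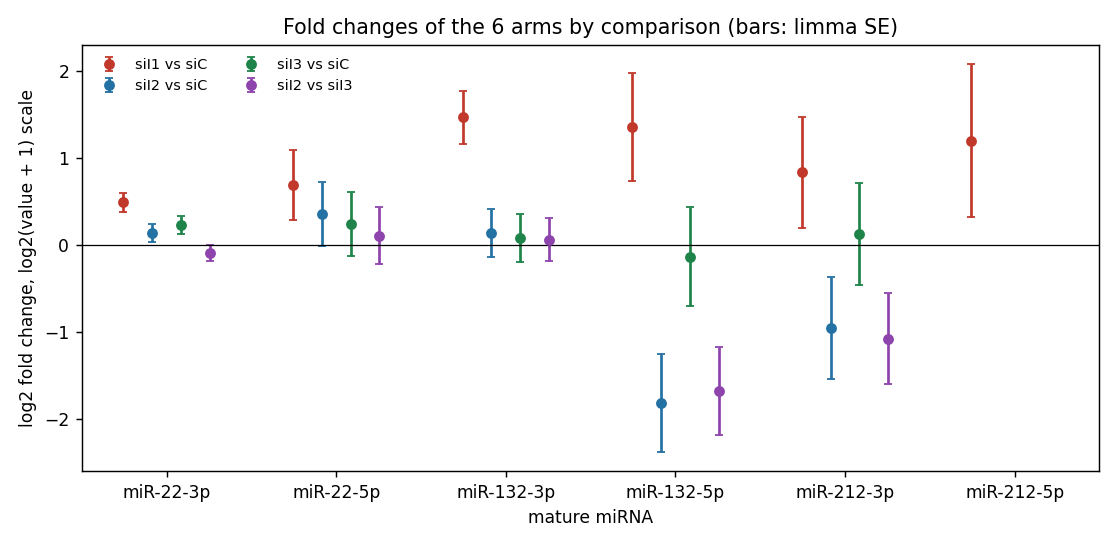
Log2 fold change on the log2(value + 1) scale (vertical axis) of each arm in each comparison, with limma standard errors as bars. The siI1 points lie above 0 for each arm, from 0.49 to 1.47, and miR-132-5p lies at -1.82 and -1.68 in the comparisons of siI2 with siC and siI3. miR-212-5p has a point for siI1 only.

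The use of the arms within a hairpin does not depend on the scaling of a library. For miR-22 the 5p arm made up 0.0431% ± 0.00718 (SD, n = 2) of the reads of both arms in siC and 0.0517% ± 0.0141 (SD, n = 2) in siI1. It made up 0.0509% ± 0.00493 (SD, n = 3) in siI2 and 0.0454% ± 0.0138 (SD, n = 3) in siI3. miR-22 was thus almost wholly a 3p miRNA in each group.

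miR-132 kept more of its passenger arm. In siC the 5p arm gave 3 of 21 reads (14.3%) and 5 of 41 (12.2%), and in siI1 it gave 22 of 149 (14.8%) and 17 of 143 (11.9%). So both arms of miR-132 were higher in siI1 while the share of the 5p arm stayed within the spread of the libraries, at 13.2% ± 1.48 (SD, n = 2) and 13.3% ± 2.03 (SD, n = 2). In siI3 it gave 2 of 20 (10.0%), 4 of 49 (8.16%) and 6 of 34 (17.6%). In siI2 it gave 1 of 32 (3.1%), 1 of 25 (4%) and 0 of 21, which allows a share of up to 14.3%. The siI2 shares were the lowest of the 10 libraries, and each rests on 1 read or none. The difference in mean share, siI2 minus siC, was -10.9 percentage points (two-sided exact permutation p = 0.2, the smallest that 3 against 2 libraries allow). The difference siI2 minus siI3 was -9.56 points (two-sided exact permutation p = 0.1, the smallest for 3 against 3). Adjusted over the 12 tests of shares, both exact permutation tests had p = 0.8. These designs cannot reach 0.05.

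miR-212 made up a small part of the reads of the locus of miR-132 and miR-212. Its share of the reads of all 4 arms was 13.5% ± 1.47 (SD, n = 2) in siC, from 10 of 72 reads, and 10.4% ± 0.506 (SD, n = 2) in siI1, from 34 of 326. It was 8.22% ± 0.711 (SD, n = 3) in siI2, from 7 of 85 reads, and 12.7% ± 7.22 (SD, n = 3) in siI3, from 14 of 117. The exact 95% interval of each library spanned the means of all 4 groups. Among miR-212 reads the 5p arm gave 3 of 10 in siC, 10 of 34 in siI1, 3 of 7 in siI2 and 1 of 14 in siI3, counts too few to rank the groups. The other tests of shares gave exact permutation p values from 0.2 to 1 and adjusted values from 0.8 to 1.

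**Figure D3:**
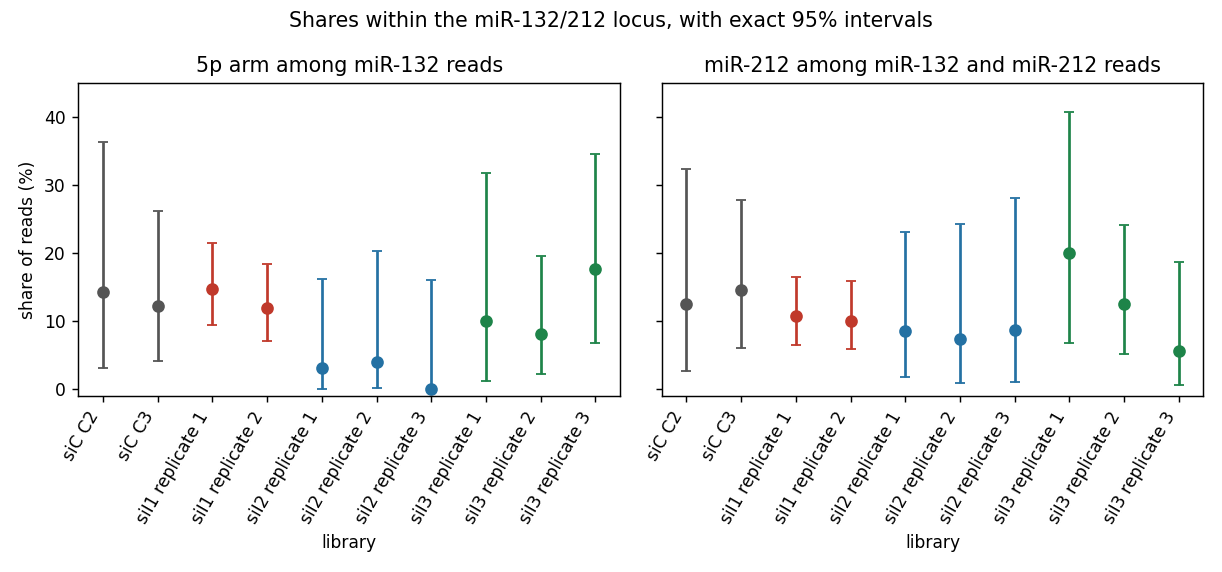
Share of reads in percent (vertical axis) in each library, for the 5p arm among miR-132 reads (left) and for miR-212 among the reads of miR-132 and miR-212 (right), with exact 95% binomial intervals as bars. In the left panel the siI2 libraries lie lowest, at 0 to 4%, and their intervals overlap those of the other groups.

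Which other miRNAs moved most like the main arms was described by Pearson correlation of log2(value + 1) over the 10 libraries, among the 313 miRNAs with a mean value of at least 10. The points share libraries, scaling and depth, so r is a description. Most like miR-22-3p were let-7b-5p (r = 0.93), miR-671-3p (0.84) and miR-625-3p (0.81). let-7b-5p, a member of the let-7 family of growth-restraining miRNAs, had means of 1433 in siC, 2018 in siI1, 1584 in siI2 and 1634 in siI3, the same order of groups as miR-22-3p. Most like miR-132-3p were miR-1294 (0.93), miR-210-3p (0.92), known as a miRNA induced by hypoxia, and miR-224-5p (0.88). miR-210-3p had means of 24.3 in siC, 153 in siI1, 25.3 in siI2 and 19.7 in siI3. Like miR-132-3p, it was highest in siI1. In siI3 replicate 2 these miRNAs parted: the log2 difference from the siC mean was 0.49 for miR-132-3p and -0.35 for miR-210-3p. Between the members r was 0.81 for miR-22-3p with miR-132-3p and 0.61 for the arms of miR-22. After subtraction of the mean of the libraries with the same source name, miR-22-3p was most like let-7b-5p (0.92), miR-296-3p (0.92) and miR-28-5p (0.87). In the same way miR-132-3p was most like miR-28-5p (0.95), miR-138-1-3p (0.93) and miR-1294 (0.92), and r between the main arms was 0.85. miR-210-3p and miR-224-5p were then not among the 3 most like miR-132-3p. Both main arms were chosen with their difference between siI1 and siC known. That difference enters each r given here, so nothing is read from these values.

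**Figure D4:**
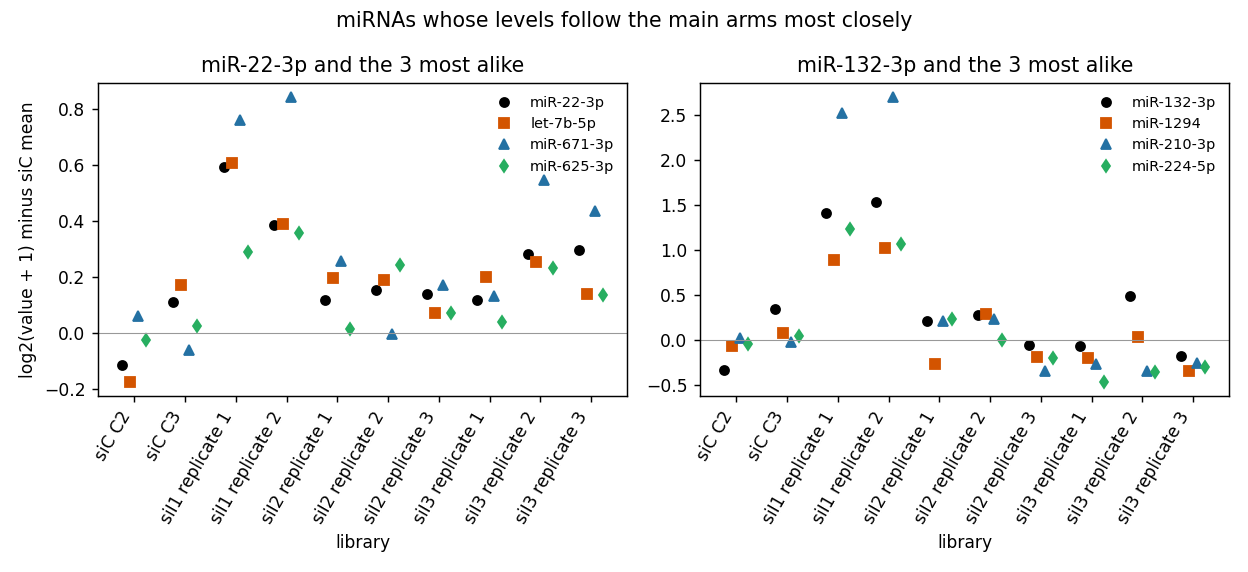
Difference of log2(value + 1) from the siC mean (vertical axis) in each library for miR-22-3p (left) and miR-132-3p (right), each with the 3 miRNAs most correlated with it over the 10 libraries. The siI1 points of miR-210-3p, whose mean was 153 there and 24.3 in siC, lie highest in the right panel, and the scales of the panels differ.

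The other miRNAs listed from the short arm of chromosome 17 (13, of which 10 were tested) gave 1 call in the 4 comparisons. In siI1 against siC 1 of the 10 rose and 0 fell, where 2.47% of all tested miRNAs were called in either direction: miR-1180-3p went from 62.1 ± 3.14 (SD, n = 2) to 133 ± 7.95 (SD, n = 2), a log2 difference of 1.08 ± 0.26 (SE) with a limma adjusted p of 0.0473. None of the 10 was called by limma in siI2 against siC, siI3 against siC or siI2 against siI3, where 9.00%, 10.6% and 3.15% of all tested miRNAs were. The medians of the list were 0.21 in siI1, 0.19 in siI2 and -0.01 in siI3 against siC, where those of all tested miRNAs were 0.10, -0.03 and 0. miR-4521, which had the highest mean of the list over all 10 libraries, stood at 103 ± 16.8 (SD, n = 2) in siC and 120 ± 17.9 (SD, n = 2) in siI1, and at 159 ± 29.9 (SD, n = 3) in siI2 and 115 ± 6.43 (SD, n = 3) in siI3. miR-324-3p stood at 34.4 ± 7.29 (SD, n = 2) in siC and 24.5 ± 3.99 (SD, n = 2) in siI1, a log2 difference of -0.47 ± 0.35 (SE) with a limma adjusted p of 0.686.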

How the data were processed

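Per the labels' protocols, TRIZOL RNA was made into TruSeq small RNA libraries. Build hg19, edgeR 3.12, featureCounts 1.4.6, Bowtie2 2.2.4 and cutadapt 1.6 are named in the submitters' processing notes; the sources used here give neither settings nor scaling. The authors deposited a normalised signal per library and, per knockdown, a log2 fold change with a p-value and false discovery rate; these deposited statistics are quoted with the table's name. In each library 100% of the values were whole multiples of 1 read within 0.01 reads, so reads were recovered. In all 0 columns were left unused, and 0 rows named no miRNA. Rows of genomic copies (218) were summed.

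The main test was limma 3.58.1 (R 4.3.3) on log2(value + 1) over 10 libraries in 4 groups, with Benjamini-Hochberg adjustment over 889 miRNAs that reached a value of 1 in 2 or more libraries. Alternatives were pseudocounts of 0.1 and 5, other scalings and filters, separate genomic copies, the compared groups alone, edgeR 4.0.16 (335 miRNAs tested) and DESeq2 1.42.0 on recovered reads, and leaving out each library. The scripts were tested on simulated data. Shares were tested by exact permutation (scipy 1.17.1), with exact Clopper-Pearson intervals. Chi-square per degree of freedom between replicates was 8.17 to 46.8, above sampling noise.

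The 6 members are all named. The 3 miRNAs most alike each main arm, and up to 4 most abundant miRNAs of each list, were named by rule; miR-34a-5p was named after its values were seen. The members and lists were chosen with earlier results of these data known.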

Additional observations from a re-analysis of the deposited data

How the results depend on the processing

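Of the 6 arms 2 were past the threshold in siI1 against siC. That is the contrast they were chosen on, so nothing is read from the number under any setting. It was 1 with TMM, upper-quartile or median-of-ratios scaling, with edgeR and with DESeq2, and 0 with the compared groups alone. With a library left out, the log2 difference there ranged from 0.38 to 0.60 for miR-22-3p and from 1.14 to 1.81 for miR-132-3p. The number of arms called in siI3 against siC was 0, and 1 with upper-quartile scaling. It was 0 under each setting run in siI2 against siC and in siI2 against siI3. Over all tested miRNAs, siI1 against siC gave 19 higher and 3 lower, and for means of at least 10 alone 41 and 11. TMM scaling gave 12 and 13, upper-quartile scaling 10 and 4, and median-of-ratios scaling 13 and 15. With edgeR the counts were 17 and 25, with DESeq2 11 and 24, and with the compared groups alone 10 and 0 of 665. Upper-quartile scaling gave 49 higher and 73 lower in siI3 against siC (17 and 77 as deposited) and 5 and 22 in siI2 against siI3 (15 and 13 as deposited). Median-of-ratios scaling moved the median of the 313 more abundant miRNAs in siI1 against siC from 0.16 to -0.07, and upper-quartile scaling moved it in siI2 against siI3 from -0.04 to -0.22.

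Directions reversed for small differences. In siI3 against siC miR-132-3p was -0.025 with median-of-ratios scaling, -0.039 with edgeR and -0.036 with DESeq2, and miR-132-5p was 0.022 with upper-quartile scaling. In siI2 against siI3 upper-quartile scaling gave -0.065 for miR-22-5p and -0.12 for miR-132-3p. With a library left out, miR-132-3p ranged from -0.19 to 0.48 in siI2 against siC, from -0.26 to 0.42 in siI3 against siC and from -0.065 to 0.27 in siI2 against siI3. In siI3 against siC miR-132-5p ranged from -0.34 to 0.048 and miR-212-3p from -0.23 to 0.62, and in siI2 against siI3 miR-22-5p ranged from -0.12 to 0.30. The cause was not tested.

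In deviations from group means, same-numbered siI2 and siI3 libraries correlated at -0.12, -0.16 and -0.04, and differently numbered ones at -0.05 to 0.20. With 3 libraries per group these values cannot show whether a replicate number marks a shared batch. With a replicate block 0 arms were called, and over all miRNAs 4 higher and 1 lower of 728 tested, against 17 and 20 of 728 in these groups without the block and 15 and 13 of 889 in the fit of all groups. No paired analysis with siC was possible. The numbers in the names of the control columns, C2 and C3, could not be matched to the replicate numbers of the control samples.

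The arms of miR-212 and miR-132-5p rest on so few reads that 1 read moves them. None of these arms passed the filter on a mean of at least 10, and miR-212 did not pass edgeR's filter either. They have no value there. DESeq2 gave no adjusted p for miR-132-5p and miR-212-3p in siI2 against siI3. Ranges over settings leave these cases out.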

Other observations

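Loss or activity of p53, whose gene also lies on the short arm of chromosome 17, is often read from the miRNAs it induces. Of 12 listed p53-induced miRNAs (both arms of miR-34a, miR-34b, miR-34c, miR-192, miR-194 and miR-215) 7 were tested. None was called in siI1 against siC, in siI2 against siC or in siI2 against siI3, and 1 fell in siI3 against siC: miR-34a-5p, at 7.13 ± 3.09 (SD, n = 2) in siC and without a read in the siI3 libraries, with a limma adjusted p of 0.0197. That is 1 of 7, where 10.6% of all tested miRNAs were called in that comparison, 17 higher and 77 lower of 889. That comparison crosses the source names, and the siI2 libraries stood at 1.74 ± 1.93 (SD, n = 3). miR-34a-5p had 26 reads over all 10 libraries, so its call rests on few reads and its zeros show no absence. miR-192-5p, the most abundant of the list, stood at 966 ± 5.43 (SD, n = 2) in siC and 1005 ± 83.7 (SD, n = 2) in siI1, and at 904 ± 93.0 (SD, n = 3) in siI2 and 825 ± 41.4 (SD, n = 3) in siI3. The medians of the list were 0 in siI1, -0.25 in siI2 and -0.41 in siI3 against siC, where those of all tested miRNAs were 0.10, -0.03 and 0.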
